A study of Mus musculus with 3 samples.

Results

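Gene expression in the enamel organ of a mouse heterozygous for Stim1 in ameloblasts was compared with that of a Cre-negative control. The comparison takes 2 of the 3 RNAseq libraries of the study. Of the 20937 genes in the count table, the 14176 with a mean of at least 50 counts over these 2 libraries were compared. Stim1 HT carried the AmelX-iCre transgene and was Stim1 fl/wt, with 1 floxed and 1 wild-type allele, and its label gives a partial deletion of Stim1. Stim1 Ctrl had both alleles floxed but no Cre (AmelX-iCre-; Stim1 fl/fl). The 2 libraries therefore differed in the Cre transgene and in the number of floxed alleles, and the effects of these cannot be told apart. In the third library, Stim1 cKO (AmelX-iCre+; Stim1 fl/fl), both alleles were floxed in the presence of Cre, and its values are set beside the others only for orientation. RNA came from the whole incisor enamel organ at 4 weeks of age, and the methods of the study state that the mice were male. Cre was driven by the amelogenin promoter, which is active in ameloblasts, so other cells in the dissected tissue were expected by design to keep Stim1.

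STIM1 is a calcium sensor in the endoplasmic reticulum membrane. When the store empties, STIM1 opens ORAI channels in the plasma membrane, which is termed store-operated calcium entry. Ameloblasts lay down a matrix of amelogenin, ameloblastin and enamelin in the secretory stage, and in the maturation stage they replace it with mineral. The enamel organ lies in the jaw close to oral and nasal epithelium, glands, muscle and bone. Oral and epidermal keratinocytes end their differentiation in a cornified envelope, airway epithelium carries secretory and multiciliated cells, and olfactory epithelium carries sensory neurons.

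With 1 library per genotype, the differences below have no replicate check and were not tested. Total counts were 20216507 in Stim1 HT and 28265960 in Stim1 Ctrl. Levels are given as raw counts or as CPM, counts relative to the TMM-scaled library size, and differences as the log2 ratio of CPM in Stim1 HT over Stim1 Ctrl, so that 1 is a 2-fold higher level in Stim1 HT. The intervals in brackets are exact 95% binomial intervals of the split of a gene's counts between the libraries. They cover counting error only and say nothing of the spread between mice. They treat each read as independent, but amplified reads are not independent molecules, so they may be too narrow even for counting error. The median log2 ratio over all genes compared was -0.06, with 6261 genes above 0 and 7915 below. At more than 2-fold, 575 genes were higher in Stim1 HT (4.06% of the genes compared) and 278 were lower (1.96%), and for 384 and 147 of these the whole counting interval lay beyond 2-fold. A further 8227 genes (58.0%) lay within 1.25-fold. Of the 5150 genes that averaged 1000 counts or more, 65 were higher and 39 lower. Of the 575 higher genes, 239 reached the mean count required for comparison only through Stim1 HT. Of the 278 lower genes, 93 reached it only through Stim1 Ctrl. At a mean of at least 200 counts, 211 genes were higher and 146 lower, so the size of the excess of higher genes depends on this minimum. The lists of late cornified envelope, epidermal lipid barrier, demilune and lingual gland, airway secretory, olfactory neuron, motile and primary cilium, androgen-binding secretoglobin, sensory neuron and collagen VI, XII and XIV genes were added after values were seen, so their counts are descriptions and not independent evidence of a direction. Where a call is said to depend on length, the value left after subtracting the median of genes of the same exon length is given. In the plot of ratio against abundance, the points far from 0 were mostly higher in Stim1 HT, with the same limit from the count minimum.

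**Figure D1:**
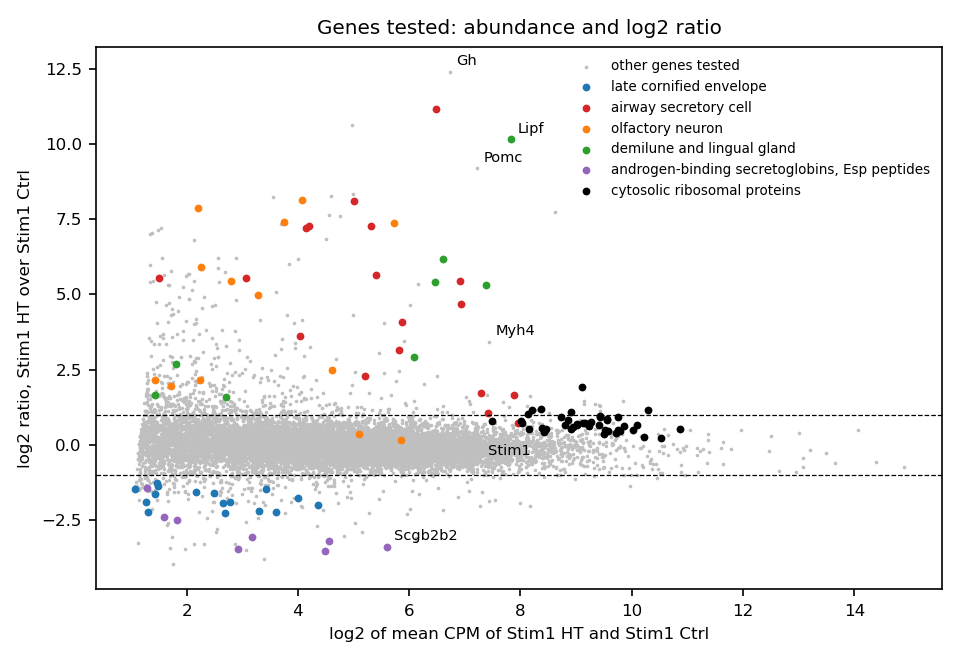
Log2 ratio of Stim1 HT over Stim1 Ctrl (vertical axis) against the mean abundance in the 2 libraries (horizontal axis, log scale), with 1 point per gene and members of selected lists coloured. Most genes lie near 0, Gh and Lipf lie above 10, and Stim1 lies at -0.55.

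The libraries were checked against their labels first. The labels give the cell type as ameloblasts, and the transcript of amelogenin, Amelx, had 394281 counts in Stim1 HT and 362520 in Stim1 Ctrl. Markers of other tissues were also abundant. The collagen transcript Col1a1 of bone and connective tissue had 445956 and 959029 counts, and the skeletal muscle actin transcript Acta1 had 145724 and 251955. In bulk tissue, fewer cells of a type and less RNA per cell cannot be told apart, which bears on each list of cell type markers below. The Y chromosome genes had a similar summed level in Stim1 HT (177 CPM) and Stim1 Ctrl (181 CPM). Xist, the RNA of the inactive X chromosome, had 36 counts in Stim1 HT, 1 in Stim1 Ctrl and 10897 in Stim1 cKO, so the Stim1 cKO library goes against a source in male mice alone and its values are given with that limit.

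Stim1 had 2536 counts in Stim1 HT, 4797 in Stim1 Ctrl and 1763 in Stim1 cKO. This corresponds to 129, 189 and 71.7 CPM, so that Stim1 HT lay between the other two. The log2 ratio of Stim1 HT over Stim1 Ctrl was -0.55 [-0.62, -0.48], within 2-fold, and -0.27 after the median of genes of the same exon length was subtracted. Stim2, the second sensor of the family, had 1369 and 1886 counts (log2 ratio -0.09 [-0.19, 0.01]). Orai1, the channel subunit, had 467 and 626 (-0.05 [-0.23, 0.12]). None of the 10 genes of store-operated calcium entry differed more than 2-fold, and their log2 ratios ran from -0.55 for Stim1 to 0.33 for Saraf, which encodes an inhibitor of STIM1. The same held for the 19 calcium pumps and exchangers, the 12 NFAT and calcineurin genes of the pathway downstream, and the 16 genes that flank Stim1 on its chromosome.

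None of the 13 secretory-stage genes differed more than 2-fold, with a median log2 ratio of 0.23. Amelx stood at 0.49 [0.48, 0.50], the ameloblastin transcript Ambn at 0.38 and the enamelin transcript Enam at -0.12. The matrix protease transcript Mmp20, which cleaves amelogenin, stood at 0.30 [0.22, 0.38]. Of the 18 maturation-stage genes, 6 were higher in Stim1 HT and none was lower, with a median of 0.36. Odam, which encodes a protein of the ameloblast attachment to enamel, had 3870 counts in Stim1 HT and 1933 in Stim1 Ctrl (log2 ratio 1.37 [1.29, 1.45]). Klk4, the protease that clears the enamel matrix, had 594 and 328 (1.23 [1.03, 1.43], but 0.75 after length was subtracted). Slc5a8, a monocarboxylate transporter, stood at 1.77, Car6, a secreted carbonic anhydrase also made by salivary glands, at 1.59, and Wdr72, which is mutated in hypomaturation enamel defects, at 1.14. Ptgds, a prostaglandin D synthase also made in other tissues, had the largest ratio of the list, with 2446 counts against 127 (4.64 [4.38, 4.91]). Amtn, which encodes amelotin, stood just within the limit at 0.98. The other members ran both ways, with 11 of the 18 above 0 and 7 below.

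Many of the lower transcripts belonged to cornifying squamous epithelium. The late cornified envelope (Lce) genes encode small proteins that are crosslinked under the surface of the cornified cell. All 16 compared were lower in Stim1 HT, with a median log2 ratio of -1.83, and their summed level was 51.8 CPM in Stim1 HT, 188 in Stim1 Ctrl and 116 in Stim1 cKO. Of these 16, 8 reached the count minimum only through Stim1 Ctrl, where they were high. All 21 Lce genes found in the table lay below 0. Lce3a had 143 and 625 counts in Stim1 HT and Stim1 Ctrl (-1.76 [-2.03, -1.49]). The lowest ratio was that of Lce1a2, with 44 and 273 counts (-2.26 [-2.76, -1.80]), and the highest that of Lce1i, at -1.27. Members of this family are close in sequence, so that reads may have been split among them and the single values are uncertain.

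Of 15 cornified envelope genes, 12 were lower in Stim1 HT and none was higher, with a median of -1.84 and a summed level of 465 CPM against 1467. Of these 15, 2 reached the count minimum only through Stim1 Ctrl. Loricrin, the main protein of the envelope (Lor), had 2221 counts in Stim1 HT and 11688 in Stim1 Ctrl (-2.03 [-2.09, -1.96]). Repetin (Rptn), an S100 fused-type protein of the envelope, had 1593 and 7366 (-1.84 [-1.92, -1.76]). Sprr3, a small proline-rich envelope protein of oral and oesophageal epithelium, had 1198 and 6340 (-2.03 [-2.12, -1.94]). Dsc1, a desmosomal cadherin of upper layers, stood at -2.28, Cdsn, which encodes corneodesmosin, at -1.94, and Casp14, a caspase of terminal keratinocytes, at -1.79. The proteases Klk7 and Klk5, which release cornified cells, stood at -1.16 and -1.07, the latter within 2-fold when scaled by library size alone. The transglutaminase genes Tgm3 and Tgm1, which encode the crosslinking enzymes, were nearer to 0 (-0.83 and -0.21).

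Of 13 epidermal lipid barrier genes, 8 were lower in Stim1 HT, with a median of -1.43, and 3 of the 13 reached the minimum only through Stim1 Ctrl. At a mean of at least 200 counts 7 of them remained, with a median of -0.48. Alox12b, a lipoxygenase of the barrier lipids, had 129 and 683 counts (-2.03 [-2.32, -1.76]), and Abca12, a lipid transporter of lamellar granules, had 59 and 259 (-1.76 [-2.20, -1.35]). Of 19 keratins compared, 2 were lower and 2 higher, with a median of -0.04. The lower ones were Krt76, of oral and palatal epithelium (-1.10), and Krt4, of non-cornified oral epithelium (-1.01), and neither passed 2-fold when scaled by library size alone. Outside that list, Krt78, a keratin of differentiated squamous cells, had 474 and 2685 counts (-2.13 [-2.28, -1.99]). Krt13, the partner of Krt4, stood at -0.89 and Krt10 at -0.94, just within 2-fold. After length was subtracted they stood at -1.13 and -1.04, and 4 of the 19 keratins were lower and 2 higher. The basal keratins were nearer to 0, with Krt5 at -0.10, Krt14 at 0.29 and Krt15 at 0.34. The kallikrein genes, Klk9 and Klk14, stood at -2.42 and -2.13, and 5 of the 11 Klk genes compared were lower.

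**Figure D2:**
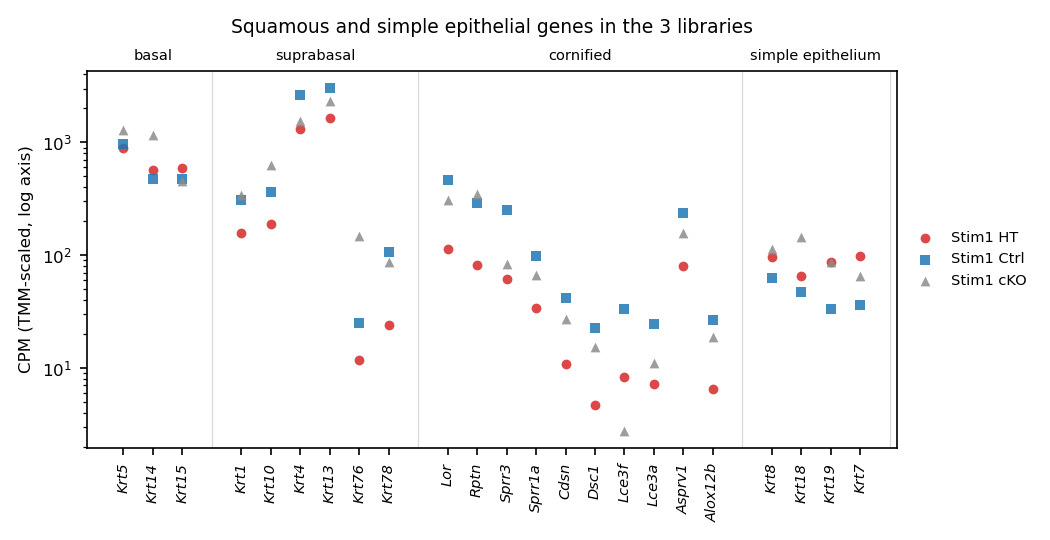
Level in CPM (log axis) of squamous and simple epithelium genes in Stim1 HT (red circles), Stim1 Ctrl (blue squares) and Stim1 cKO (grey triangles), 1 library each. Genes of the cornified layer are lower in Stim1 HT than in Stim1 Ctrl, whereas Krt5 and Krt14 differ little between these 2 libraries and Krt7 and Krt19 are higher in Stim1 HT; levels can be compared within a gene, not between genes.

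The 2 higher keratins belong to simple epithelium, which lines ducts and glands. Krt7 had 1946 counts in Stim1 HT, 919 in Stim1 Ctrl and 1593 in Stim1 cKO (log2 ratio 1.45), and Krt19 had 1727, 844 and 2127 (1.40). Krt8 and Krt18 lay within 2-fold at 0.63 and 0.46. Of 22 epithelial junction genes, 3 were higher and none lower, but 11 lay above and 11 below 0, and 1 stayed higher after length was subtracted. That gene was the tight junction gene Cldn7, with 486 and 194 counts (1.69).

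Many of the cornified envelope genes lie together in the genome. In the GENCODE M21 annotation of GRCm38, Lor and Rptn lie at the ends of a stretch of chromosome 3, chr3:92080271-93399442, within the epidermal differentiation complex. The build behind the deposited counts is not given in the sources used here, so positions were matched by gene symbol. Of the 27 genes compared in this stretch, 26 were lower in Stim1 HT and none was higher, with a median of -1.84, the remaining gene being Prr9. The ends of the stretch were set by lower genes, and genes of the Lce and cornified envelope lists above are counted again in it. Its count is therefore not independent of those lists. Of the 16 Lce genes compared, 8 reached the count minimum only through Stim1 Ctrl. With the S100 genes on both sides, from S100a1 to S100a10, 41 genes were compared, of which 27 were lower and 3 higher, and of the 13 S100a genes among them 1 was lower. The stretch held 26 of the 38 genes that were lower among the 718 compared on chromosome 3.

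In the other direction, secreted proteins of glands and airways were higher in Stim1 HT. Of 8 salivary gland genes compared, 5 were higher and 1 lower, namely Lpo, a secreted peroxidase, at -2.15. After length was subtracted 4 were higher, and 1 of the 8 reached the count minimum only through Stim1 HT. This list includes Dcpp1 and Dcpp2, which are named below. Of 8 demilune and lingual gland genes compared, 8 were higher in Stim1 HT, with a median of 4.12 and a summed level of 1290 CPM against 37.6, and 844 in Stim1 cKO. Of the 8, 3 reached the count minimum only through Stim1 HT, and 10 of the 10 found in the table lay above 0. Lipf, the gastric lipase of lingual serous glands, had 8936 counts in Stim1 HT, 10 in Stim1 Ctrl and 47 in Stim1 cKO (10.17 [9.29, 11.23]). Dcpp1, Dcpp2 and Dcpp3, secreted proteins of sublingual demilune cells, had 6419, 3784 and 3388 counts in Stim1 HT and 208, 67 and 103 in Stim1 Ctrl. They form a family of near copies, with exons of Dcpp1 and Dcpp2 overlapping in the annotation, so the single values are uncertain. Bpifa2, a parotid secretory protein, had 2351 and 403 counts (2.91 [2.76, 3.07]).

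Of 18 airway secretory genes, 17 were higher in Stim1 HT, and all 18 lay above 0, with a median of 5.06. Their summed level was 2415 CPM in Stim1 HT, 534 in Stim1 Ctrl and 9520 in Stim1 cKO, and 8 of the 18 reached the minimum only through Stim1 HT. Among the secretoglobins, small secreted proteins of club and goblet cells, Scgb3a1 had 3528 and 2 counts (11.15 [9.30, 14.20]), Scgb3a2 1549 and 13 (7.27 [6.49, 8.18]) and Scgb1a1 1641 and 42 (5.66 [5.22, 6.14]). Muc5b, a gel-forming mucin, had 4643 and 236 counts (4.67 [4.48, 4.86]), and Reg3g, an antibacterial lectin, had 4657 and 137 (5.46 [5.21, 5.71]). Bpifb1, a secreted lipid-binding protein of airway glands, had 1267 and 6 counts (8.09 [6.97, 9.54]). Bpifb9b, another gene of that family, had 1252 and 5 (8.34 [7.11, 9.96]) and 77505 in Stim1 cKO. Tff2, a trefoil peptide, had 694 and 6 counts (7.22 [6.09, 8.67]). The exception within 2-fold was Bpifa1, with 6039 and 4739 counts (0.72 [0.66, 0.77]).

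Pituitary hormone transcripts were abundant in Stim1 HT and rare in the other libraries. Gh, which encodes growth hormone, had 4190 counts in Stim1 HT and 1 in each of the other libraries (12.40 [9.92, 17.71]). Pomc, the precursor of corticotropin, had 5859 counts in Stim1 HT, 13 in Stim1 Ctrl and 27 in Stim1 cKO (9.19 [8.41, 10.10]). Of the 8 pituitary genes listed, only these 2 were in the table, which holds only genes with at least 1 count in each library. Gh and Pomc each reached the count minimum only through Stim1 HT. Chga, the chromogranin of endocrine secretory granules, had 2755 and 87 counts (5.35 [5.05, 5.68]).

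**Figure D3:**
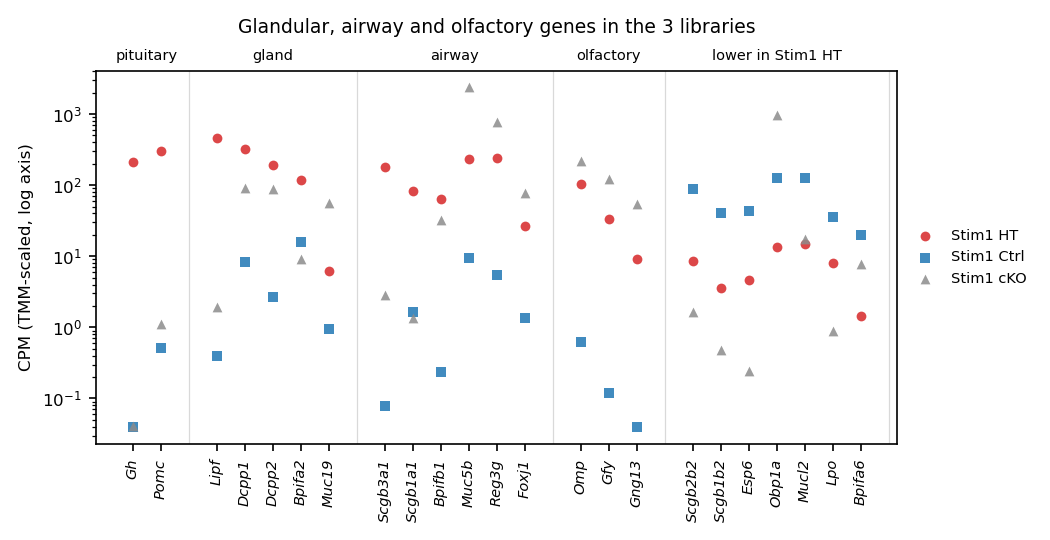
Level in CPM (log axis) of secreted-protein genes of glands, airways, pituitary and odorant-binding families in Stim1 HT (red circles), Stim1 Ctrl (blue squares) and Stim1 cKO (grey triangles), 1 library each. Gh lies at 213 CPM in Stim1 HT and at 0.0394 in Stim1 Ctrl, whereas Scgb2b2 lies at 8.55 and 89.0; levels can be compared within a gene, not between genes.

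Of 12 olfactory and respiratory epithelium genes, 9 were higher and 1 lower, with a median of 4.49. Of the 12, 6 reached the minimum only through Stim1 HT, and 12 of the 13 found in the table lay above 0. Most of the 12 stand in other lists too. The lower one was Obp1a, an odorant-binding protein, with 268 counts in Stim1 HT, 3183 in Stim1 Ctrl and 23482 in Stim1 cKO (-3.20 [-3.39, -3.02]). Of 13 olfactory neuron genes, 11 were higher in Stim1 HT, with a median of 4.99 and a summed level of 381 CPM against 100, and 1035 in Stim1 cKO. Of the 13, 10 reached the minimum only through Stim1 HT, and 15 of the 15 found in the table lay above 0. Omp, the olfactory marker protein of mature sensory neurons, had 2065 counts in Stim1 HT, 16 in Stim1 Ctrl and 5359 in Stim1 cKO (7.38 [6.68, 8.19]). Gfy, a Golgi protein of olfactory neurons, had 658 and 3 (8.15 [6.59, 10.43]), and Gng13, a G protein subunit of olfactory and taste signalling, had 180 and 1 (7.86 [5.37, 13.17]). Gng13 overlaps Chtf18. Cnga2, the cyclic nucleotide-gated channel of these neurons, stood at 5.44. Adcy3, the adenylyl cyclase that is also found in other cells, stood at 0.15. Ugt2a2, a glucuronosyltransferase of olfactory epithelium that shares exons with Ugt2a1, had 1238 and 1 counts (10.64 [8.16, 15.95]). AU040972, a transcript annotated as antisense, had 948 and 4 (8.26 [6.90, 10.14]).

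Motile cilia beat on the surface of airway and other epithelia, whereas the primary cilium is a sensory structure of most cells. Of 33 motile cilium genes compared, 22 were higher and none was lower, with a median of 2.27 and a summed level of 557 CPM against 268, and 1197 in Stim1 cKO. Of the 33, 21 reached the minimum only through Stim1 HT, and 43 of the 45 found in the table lay above 0. At a mean of at least 200 counts 5 of them remained, with a median of 0.23. Foxj1, the transcription factor that directs motile ciliogenesis, had 526 counts in Stim1 HT, 34 in Stim1 Ctrl and 1877 in Stim1 cKO (4.32 [3.82, 4.87]). Dnah5, an outer arm dynein heavy chain, had 187 and 17 (3.83 [3.11, 4.64]), and Rsph1, of the radial spoke, stood at 3.79. Mns1, a structural protein also present outside motile cilia, stood at -0.55 and Rfx2, a transcription factor of ciliary genes, at -0.04. None of 25 primary cilium genes differed more than 2-fold, though 21 lay above 0, with a median of 0.28. The difference between these lists was not tested.

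RFX factors bind promoters of many ciliary genes, and the letters GTTGCC, or GGCAAC on the other strand, are the core of their motif. In RefSeq promoters of build GRCm38.p6, from 250 bases before to 50 after the start, these letters were present in 13 of the 29 motile cilium genes with a promoter (44.8%) and in 3821 of all 27025 genes (14.1%). A match describes the sequence only. The promoters of Dnaic2, a dynein intermediate chain with 194 and 102 counts (log2 ratio 1.30), and Tekt2, a tektin with 133 and 81 counts (log2 ratio 1.09, but 0.84 after length was subtracted), are printed with the motif in capitals. Dnaic2 lies at chr11:114727169-114727468 on the + strand, with the motif at position -26 from the start. Tekt2 lies at chr4:126325597-126325896 on the - strand, with motifs at -138 and -64.
Dnaic2: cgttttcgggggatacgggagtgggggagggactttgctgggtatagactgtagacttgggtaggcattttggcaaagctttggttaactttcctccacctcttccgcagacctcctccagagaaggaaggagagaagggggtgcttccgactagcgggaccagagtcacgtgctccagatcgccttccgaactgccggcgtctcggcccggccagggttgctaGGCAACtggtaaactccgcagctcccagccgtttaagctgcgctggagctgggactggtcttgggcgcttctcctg
Tekt2: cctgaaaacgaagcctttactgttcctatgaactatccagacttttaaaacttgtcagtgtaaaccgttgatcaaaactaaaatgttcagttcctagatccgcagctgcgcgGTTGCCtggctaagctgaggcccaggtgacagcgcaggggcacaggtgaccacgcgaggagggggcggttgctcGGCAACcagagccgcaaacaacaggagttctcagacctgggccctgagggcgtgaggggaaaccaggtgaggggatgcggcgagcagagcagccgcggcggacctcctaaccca
The AP-1 motif TGANTCA was searched on both strands in the promoters of the Lce genes compared. It was present in 0 of 15 with a promoter and in 2425 of all 27025 genes (8.97%), which says only that these letters are not in this window.

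**Figure D4:**
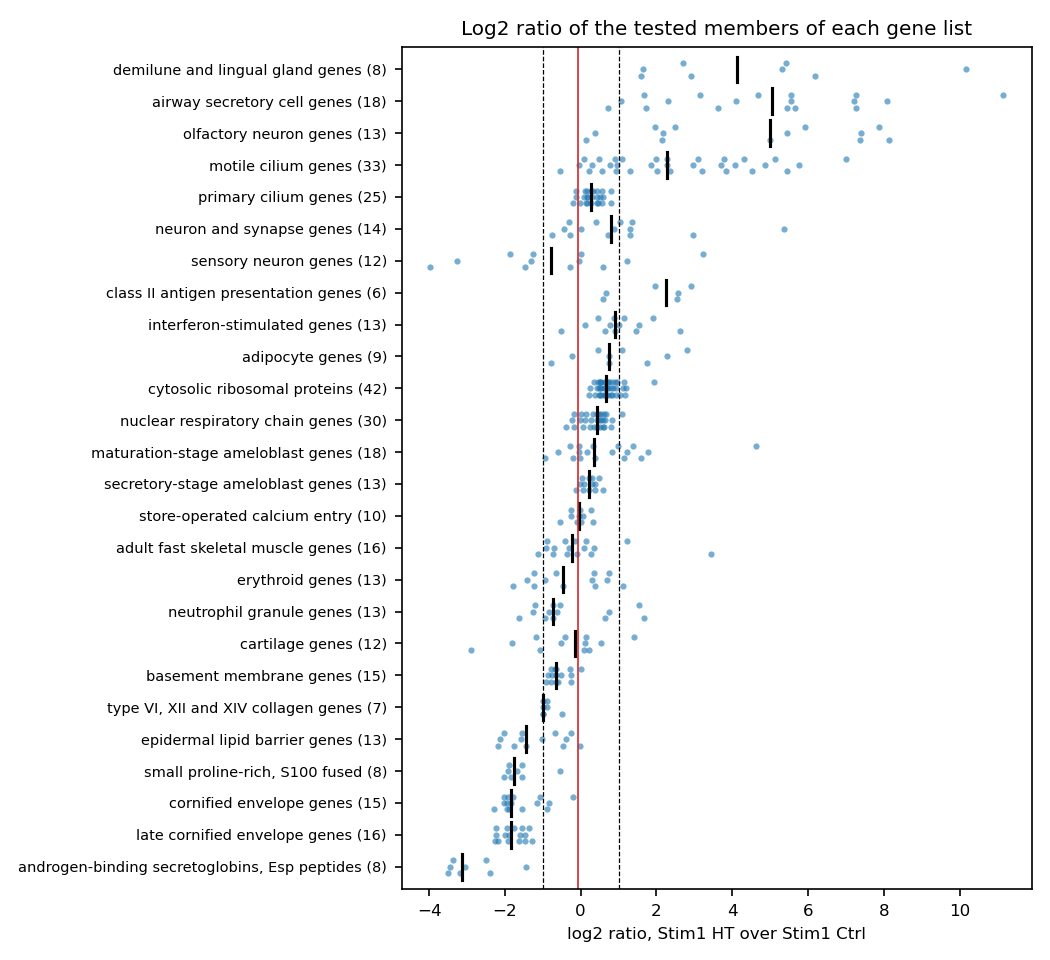
Log2 ratio of Stim1 HT over Stim1 Ctrl for the members of 26 gene lists, with 1 point per gene, black bars for list medians, a red line for the median of all genes compared and dashed lines at 2-fold. The airway secretory, olfactory neuron and demilune lists lie to the higher side with medians above 4, and the Lce and androgen-binding secretoglobin lists to the lower side.

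A different set of secreted proteins was lower in Stim1 HT. The androgen-binding secretoglobins and exocrine-gland secreting peptides are small proteins of salivary and lacrimal secretions, some of which act as pheromones. All 8 compared were lower, with a median of -3.12 and a summed level of 25.1 CPM in Stim1 HT, 223 in Stim1 Ctrl and 191 in Stim1 cKO. Of the 8, 5 reached the minimum only through Stim1 Ctrl, and 12 of the 13 found in the table lay below 0. Scgb2b2 had 168 counts in Stim1 HT, 2260 in Stim1 Ctrl and 40 in Stim1 cKO (-3.38 [-3.61, -3.15]). In Stim1 HT and Stim1 Ctrl, Scgb1b2 had 71 and 1043 counts (-3.51 [-3.87, -3.16]) and Scgb1b20 had 25 and 355 (-3.46 [-4.11, -2.87]). Exons of Scgb1b2 and Scgb2b2 overlap, and the family has many near copies. Esp6, an exocrine-gland secreting peptide, had 92 and 1082 (-3.19 [-3.51, -2.88]).

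Other lower transcripts stood outside these lists. Mucl2, a mucin-like gene, had 289 counts in Stim1 HT against 3156 in Stim1 Ctrl (-3.08 [-3.26, -2.90]), and Bpifa6 had 28 and 499 (-3.79 [-4.39, -3.24]). Pnliprp1, a lipase-related protein, had 27 and 393 (-3.49 [-4.11, -2.93]), and Chil4, a chitinase-like lectin, had 18 and 228 (-3.29 [-4.07, -2.60]). Lower transcripts of metabolism included Fmo9 (413 and 2640 counts), Dhrs2 (694 and 4032), Idi2, an isopentenyl diphosphate isomerase (2057 and 10191), and Ada, the adenosine deaminase of purine breakdown (1456 and 6871), with log2 ratios of -2.31, -2.17, -1.94 and -1.87. Gm12888, Gm853 and Gm1553, for which no role is given here, stood at -3.45, -3.41 and -3.29.

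Neuronal genes differed in both directions. Of 12 sensory neuron genes, 6 were lower and 2 higher in Stim1 HT, and 5 of the 12 reached the minimum only through Stim1 Ctrl. Scn10a and Scn11a, sodium channels of pain-sensing neurons, had 8 and 8 counts in Stim1 HT and 162 and 100 in Stim1 Ctrl (-3.97 [-5.21, -2.96] and -3.27 [-4.52, -2.24]). Calca, which encodes calcitonin and the neuropeptide CGRP and is also made by thyroid C cells, had 665 and 91 counts (3.24 [2.92, 3.57]), and Isl1, a transcription factor of sensory and endocrine cells, had 200 and 111 (1.22 [0.88, 1.57]). Of 14 general neuron and synapse genes, 6 were higher and none lower, with Chga largest and the synaptic genes Syp and Snap25 at 1.34 and 1.30. The neurofilament genes Nefm and Nefl stood at -0.76 and -0.44.

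Immune lists differed in how many members passed 2-fold. Of 12 class I antigen presentation genes, 2 were higher and all 12 lay above 0, with a median of 0.42. Of 6 class II antigen presentation genes, 4 were higher, 2 of the 6 reached the minimum only through Stim1 HT, all 8 found in the table lay above 0, and the summed level was 66.3 CPM against 16.7. Cd74, the invariant chain, had 469 and 103 counts (2.56 [2.25, 2.88]), and H2-Aa, a class II chain, had 205 and 35 (2.92 [2.40, 3.48]). All 4 B cell and plasma cell genes compared were higher, 2 of them compared only through Stim1 HT, and 12 of the 14 found lay above 0. Ighm, the heavy chain of IgM, had 432 and 117 counts (2.25 [1.96, 2.56]). Of 13 interferon-stimulated genes, 6 were higher and none lower, among them Ifi27l2a (2.63) and Isg15 (1.91). The median was 0.90, and 4 of the 13 reached the minimum only through Stim1 HT. After length was subtracted 5 of the 13 were higher. Of 13 neutrophil granule genes, 2 were higher and 3 lower, with 9 below 0 and a median of -0.73. After length was subtracted 7 were lower, with a median of -1.02. Mpo, the myeloperoxidase of early granules, stood at -1.21. The highest ratio of the neutrophil list was 1.67, and its summed level was higher in Stim1 HT (610 CPM) than in Stim1 Ctrl (383 CPM). Of 13 erythroid genes, 4 were lower and 1 higher, with 6 above 0, 7 below and a median of -0.46. After length was subtracted 5 were lower and none higher. Their summed level went the other way, at 2444 CPM for Stim1 HT against 1854 for Stim1 Ctrl. The hemoglobin gene Hba-a2 stood at 1.10, or 0.63 after length was subtracted. Slc4a1, the anion exchanger of red cells, had 1533 and 4687 counts (-1.24 [-1.33, -1.16]).

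Of 16 fast skeletal muscle genes, 2 were higher and 1 lower, and after length was subtracted 1 was higher and none lower. Myh4, the myosin of the fastest fibres, had 6258 counts in Stim1 HT and 750 in Stim1 Ctrl (3.43 [3.32, 3.54]), whereas Myh2, of fast oxidative fibres, had 6272 and 17554 (-1.11 [-1.16, -1.07], and -0.93 after length was subtracted). Myh1, of an intermediate fast type, stood at -0.92. None of the 11 slow and 11 developmental muscle genes differed more than 2-fold. Myh11, the smooth muscle myosin, had 1067 and 4623 counts (-1.75 [-1.84, -1.65]). Of 9 adipocyte genes, 4 were higher and 7 lay above 0, with a median of 0.75 and with Cfd, which encodes adipsin, at 2.80. Ucp1, the uncoupling protein of brown fat, had 2941 and 782 counts (2.28 [2.17, 2.40]), and Adipoq, the adipokine adiponectin, had 654 and 398 (1.09 [0.90, 1.27], but 0.78 after length was subtracted).

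Matrix genes of connective tissue leaned lower. All 18 fibrillar collagen and processing genes lay below 0, with a median of -0.55, or -0.39 after length was subtracted. Col5a1 passed 2-fold (17438 and 48371 counts, -1.10 [-1.13, -1.08]), but stood at -0.89 after length was subtracted and within 2-fold when scaled by library size alone. All 7 genes of collagens VI, XII and XIV lay below 0 and within 2-fold, with a median of -0.99, or -0.66 after length was subtracted. When scaled by RLE size factors, 4 of the 7 passed 2-fold on the lower side, with a median of -1.01. Eln, elastin, had 10957 and 36668 counts (-1.37 [-1.40, -1.34]). Of 12 cartilage genes, 4 were lower and 1 higher, and 1 of the 12 reached the count minimum only through Stim1 HT. After length was subtracted 3 were lower and none higher. Col10a1, the collagen of hypertrophic cartilage, had 165 and 1596 counts (-2.90 [-3.14, -2.67]), and Comp, a cartilage matrix protein also found in tendon, had 113 and 515 (-1.82 [-2.13, -1.52]). Col2a1, the main cartilage collagen, stood at -0.53 and Sox9, the chondrocyte transcription factor, at 0.12. Of 16 bone and odontoblast genes, 2 were higher, but 13 lay below 0, with a median of -0.21. After length was subtracted none was higher and 1 was lower. Bglap, the osteocalcin of osteoblasts, had 5919 and 2856 counts (1.42 [1.36, 1.49], but 0.94 after length was subtracted).

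**Figure D5:**
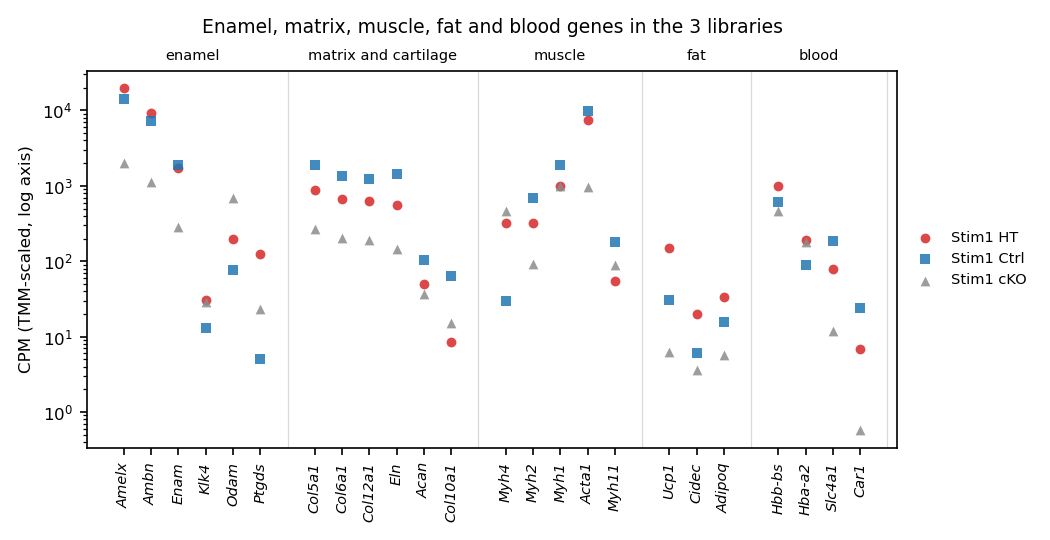
Level in CPM (log axis) of genes of enamel, matrix and cartilage, muscle, fat and blood in Stim1 HT (red circles), Stim1 Ctrl (blue squares) and Stim1 cKO (grey triangles), 1 library each. Myh4 lies at 318 CPM for Stim1 HT against 29.5 for Stim1 Ctrl, and Col10a1 at 8.39 and 62.8; levels can be compared within a gene, not between genes.

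The glandular, airway, olfactory, ciliary, squamous, immune, muscle, fat and cartilage lists hold markers of cells other than ameloblasts. The part of such cells in the difference of any other gene was not tested.

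All 42 cytosolic ribosomal protein genes lay above 0, with a median of 0.66, and 6 were over 2-fold higher. Rpl41, a ribosomal protein of very short length, had 17205 and 5845 counts (1.93 [1.88, 1.97]). After length was subtracted, the median of the list was 0.41 and 2 of the 42 were over 2-fold higher. Of 30 nuclear respiratory chain genes, 25 lay above 0, with a median of 0.44, and 0.07 after the same subtraction. Of 15 imprinted growth genes, 14 lay below 0, with a median of -0.65, or -0.47 after length was subtracted. Zim1 had 698 and 2791 counts (-1.63 [-1.75, -1.51]), and the 1 gene above 0, Nnat, was over 2-fold higher. Of 13 glucocorticoid-responsive genes, 3 were lower, namely Zbtb16 (128 and 692 counts, -2.06 [-2.35, -1.79]), the FK506-binding protein gene Fkbp5 (-1.20) and the clock gene Per1 (-1.01). After length was subtracted, Fkbp5 and Per1 stood at -0.96 and -0.86.

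Several pathways showed no gene beyond 2-fold. These were the 21 genes of endoplasmic reticulum stress and folding, 20 of cholesterol synthesis, 12 of fatty acid synthesis, 17 of the cell cycle, 17 of DNA replication, 24 immediate early genes and 28 BMP and TGF-beta genes. Of 30 Wnt genes, 1 was lower. The 14 hedgehog genes lay below 0 without passing 2-fold, with a median of -0.42, or -0.31 after length was subtracted.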

How the data were processed

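RNAseq libraries of the enamel organ were compared between Stim1 HT and Stim1 Ctrl, 1 library each. The authors checked reads with FastQC and removed those of low quality, aligned trimmed paired-end reads with STAR, and deposited raw counts per gene symbol without normalization. Versions, genome build, annotation, counting tool and strand setting are not given in the sources used here, and the labels name a SMARTER kit where the methods name a directional NEBNext kit. The table lists 20937 genes, the lowest count being 1, so a gene at 0 in a library is not analysed here. Dates stand in place of symbols for 25 genes. Overlapping and antisense genes are uncertain without the strand setting: exons of 5006 of the genes compared overlap another gene.

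TMM factors over the 3 libraries (edgeR 4.0.16, R 4.3.3) gave CPM, and log2 ratios without pseudocount were taken in Python 3.11.15 (numpy 2.4.6, pandas 2.3.3, scipy 1.17.1) for genes averaging 50 counts or more over the 2 libraries. No test was made. The script was tested on simulated data. GENCODE M21 (GRCm38) held 20682 of the symbols and gave exon lengths for 99.3% of the genes compared. Genes were described in 87 lists, by symbol family and by chromosome. The members and lists were chosen with earlier results of these data known, and 15 of the lists were added after values were seen. Named were, per direction, the 10 largest log2 ratios at a mean of at least 50 and of at least 1000 counts, leaving out thyroid genes, with Stim1, Stim2, Orai1, list members, and members past 2-fold of symbol families in which a larger share passed 2-fold than of all genes. Acta1, Col1a1, Xist and Amelx were given to check the labels. No column of the table was left unused.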

Additional observations from a re-analysis of the deposited data

How the results depend on the processing

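The numbers of genes beyond 2-fold depended on the filter and on the fold chosen. A mean of at least 10 counts gave 1294 higher and 513 lower genes, a mean of at least 200 gave 211 and 146, and no filter gave 2319 and 1022. A fold of 1.5 gave 1328 and 1187 and a fold of 4 gave 214 and 49. Requiring the whole counting interval beyond 2-fold left 147 lower genes. Under the other scalings, with 1 CPM added, without enamel matrix and mitochondrial or thyroid genes, and after centring on exon length or on length and GC content, the counts ran from 461 to 685 higher and from 194 to 305 lower. Scaling by library size alone moved the median of all genes from -0.06 to 0.06 and put 7907 genes above 0 and 6269 below. List medians near 0 therefore carry no direction. Of the list medians, 327 values stayed on their side of 2-fold and 9 moved across it. The motile cilium median was 0.23 at a mean of at least 200 counts, where 5 genes remained, and the epidermal lipid barrier median was -0.48, with 7. The Stim1 log2 ratio ran from -0.58 with RLE size factors to -0.26 after centring on length and GC content. For the genes with the largest log2 ratios, Stim1, Stim2 and Orai1, 392 values stayed within the counting interval of the gene and 57 moved outside it. No list median beyond 2-fold and no gene of this set beyond 2-fold changed sign. Smaller medians could change sign: that of store-operated calcium entry went from -0.04 to 0.08 when scaled by library size alone. The medians checked were those of a selection of the lists, and other lists and other list members were not part of this check. No paired analysis was possible because each genotype has 1 library, and no library could be left out. Depth limits genes with few counts, for which the intervals given are wide.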
